A study of Mus musculus with 8 samples.

Results

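Acetylcholine is read by muscarinic receptors, which couple to G proteins, and by nicotinic receptors, which are cation channels built from 5 subunits. Their transcripts were measured here in the medial prefrontal cortex (mPFC) of mice exposed to maternal separation (MS) and of control mice. The family comprised 10 genes, the muscarinic Chrm1, Chrm2, Chrm3, Chrm4 and Chrm5 and the nicotinic subunit genes Chrna3, Chrna4, Chrna5, Chrna7 and Chrnb2. They were found by their symbols among the 34797 gene names of the array and had 13 of its 55681 probes.

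In the 4 MS mice, the pups had been taken from a dam that was herself stressed unpredictably, daily between postnatal days 2 and 14. The 4 control mice had stayed undisturbed with their dams. All 8 were male mice of the inbred C3H/HeN strain, carried no engineered allele, were weaned at postnatal day 21, performed operant tasks for palatable food as adults, and were killed after a fast. Each dissected mPFC was hybridised alone to a single-colour Agilent array, and animals are named by group and label number, such as MS 7.1 or control 8.4. The number before the point is shared by 3 of the MS mice and by 3 of the controls, and the labels and methods do not explain it, so p values measure the spread between these animals only.

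Cortical acetylcholine comes mainly from neurons of the basal forebrain and acts on attention and on the excitability of pyramidal cells. The muscarinic M1, M3 and M5 receptors (Chrm1, Chrm3, Chrm5) signal through Gq and phospholipase C, whereas M2 and M4 (Chrm2, Chrm4) signal through Gi and lower cyclic AMP. In the cortex, the high-affinity nicotinic receptor combines alpha4 and beta2 subunits (Chrna4, Chrnb2), at times with alpha5 (Chrna5), and alpha7 (Chrna7) can form channels alone. The comparison asks whether early-life MS left a difference in these transcripts in the adult mPFC.

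Each level is the processed signal of a probe divided by the 75th percentile of its array, on a log2 scale. A level of 0 is thus as bright as that percentile, which lay between 588 and 892 signal units, and 1 unit of level is a 2-fold difference in signal. A probe counts as above background where the scanner software called it well above background. Only probes that met this on each of the 4 arrays of either group were tested, in all 34095 probes of 23461 gene names and among them 9 receptor probes of 7 receptor genes. The arrays had 61.5% to 68.9% of probes above background and no saturated spot, and control 8.4 stood apart, with a median correlation of 0.987 with the other arrays against at least 0.993 for each other array. In bulk tissue, fewer cells of a type and less RNA per cell cannot be told apart. All 8 markers of cortical excitatory neurons were above background on every array, with a mean score of -0.02 to 0.22 in MS and -0.58 to 0.11 in control mice, lowest in control 8.4. The scores of inhibitory neurons, oligodendrocytes, astrocytes, microglia and endothelial cells lay within -0.21 to 0.19 in MS and -0.22 to 0.36 in control mice. A score is the mean over the listed markers of the level minus its average over the 8 arrays.

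Chrm1 had by far the brightest receptor probe, and the 7 receptors above background on every array ran down to Chrm2. Averaged over the 8 animals, the order was Chrm1 at 2.90, Chrnb2 at 0.38, Chrna4 at -0.45, Chrm3 at -0.89, Chrm4 at -2.13, Chrna7 at -2.61 and Chrm2 at -3.50. Below them Chrna5 averaged -5.62 but was above background on only 3 arrays, and Chrm5 and Chrna3, above background on none, have no order. The values of neighbours in this order overlapped for Chrna4 and Chrm3, where Chrna4 was the brighter in 7 of 8 animals. They overlapped as well for Chrm4 and Chrna7, where Chrm4 was the brighter within each of the 8 animals. The other 4 neighbouring levels of these 7 receptors did not overlap in any animal. Signals of different probes depend on the probe as well as on the RNA, so this is an order of probe signals and not of transcript numbers.

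**Figure D1:**
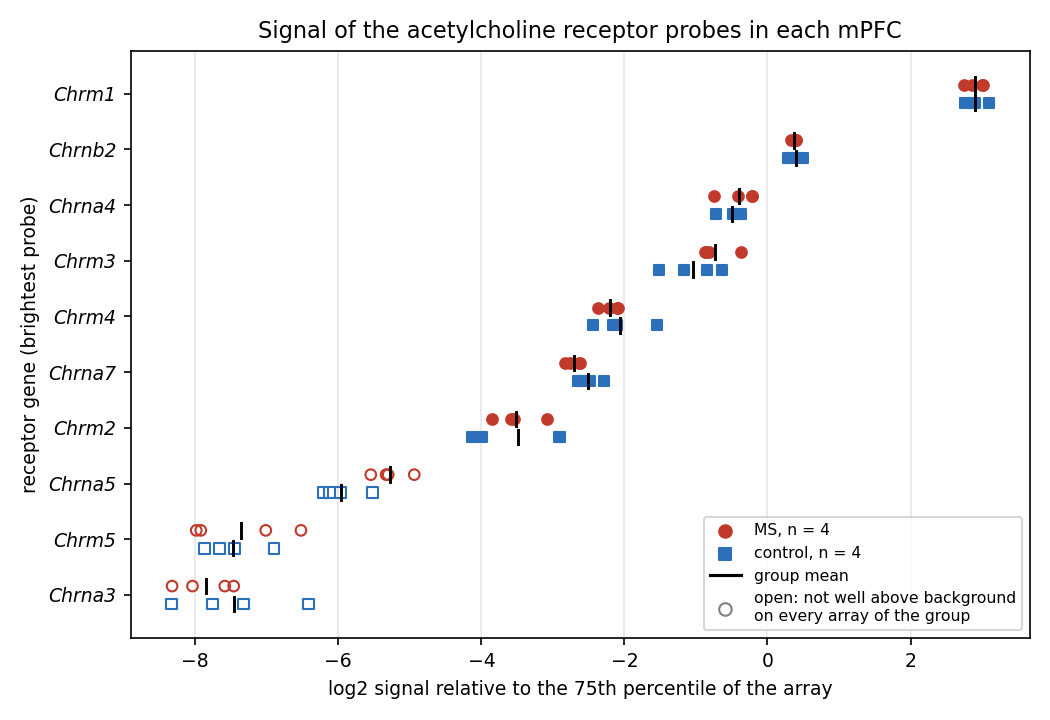
Level of the brightest probe of each of the 10 receptor genes (rows, placed by mean level, which sets no order where symbols are open) in each animal, as log2 signal relative to the 75th percentile of the array (horizontal axis). Red circles are the 4 MS mice, blue squares the 4 control mice, black bars group means, and open symbols mark groups in which the probe was not well above background on every array. MS and control values overlap for each gene, and Chrm1 at 2.90 lies furthest to the right.

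How much the probe matters can be seen in the 3 receptor genes that have more than 1. Their first 30 of 60 bases are shown because each gene's probes gave different levels, and the position of each probe on mouse build mm9 is given with them. Whether a probe lies in coding sequence or in an untranslated region was not analysed here.
Chrm1, brighter probe: ctctcatatactaggccaacactctacaaa
Chrm1, dimmer probe: tggtaagggaagttcccaaagcctaatgaa
Chrna4, brighter probe: gcttcgtgttattaatattcttccctgcct
Chrna4, dimmer probe: gttagggcagaatgcttgatttaagacttt
Chrna7, brighter probe: catgtttctcctttctggatgcacctcaga
Chrna7, dimmer probe: cgagaattggggtcctaactctacattgtg

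The Chrm1 probes, at chr19:8758011-8758070 and chr19:8755342-8755401 on the plus strand, lie 2.669 kb apart and are assigned to different RefSeq transcripts. Their levels differed by 5.21 log2 units, which is 37.1-fold. At its dimmer probe, Chrm1 would stand below Chrm4 in the order and not at its head. The Chrna4 probes, at chr2:180753095-180753154 and chr2:180757309-180757368 on the minus strand, differed by 5.18 log2 units as read, although the dimmer was above background on only 4 of the 8 arrays. The brighter is assigned to an Ensembl transcript, the dimmer to a RefSeq one. The Chrna7 probes, at chr7:70286594-70286653 and chr7:70244005-70244064 on the minus strand, lie 42.589 kb apart and differed by 0.60 log2 units. Such gaps were common, with a median of 2.51 log2 units between the brightest and dimmest tested probes of 4521 genes and a gap over 2 units in 58.7% of them. Below, the brightest probe stands for a gene and the other is given beside it.

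None of the 9 tested receptor probes passed the Benjamini-Hochberg threshold of 0.05 in limma, as none of the 34095 tested probes did (0%), the smallest adjusted p being 0.99956. None of the 9 had an unadjusted p under 0.05, against 2.39% of all tested probes. None had MS and control values that did not overlap, against 1.43% of the probes compared. For 7 of the 9 the 95% confidence interval of the difference lay within a 1.5-fold change either way, as it did for 80.9% of all tested probes. The remaining probes, those of Chrm2 and Chrm3, leave room for larger changes. Of the 7 tested genes, 3 had a higher mean in MS mice, as did 54.9% of all tested probes. The count was 5 without control 8.5. The median log2 fold change was -0.013 over the 4 muscarinic and -0.020 over the 3 nicotinic genes, against 0.014 over all tested probes.

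**Figure D2:**
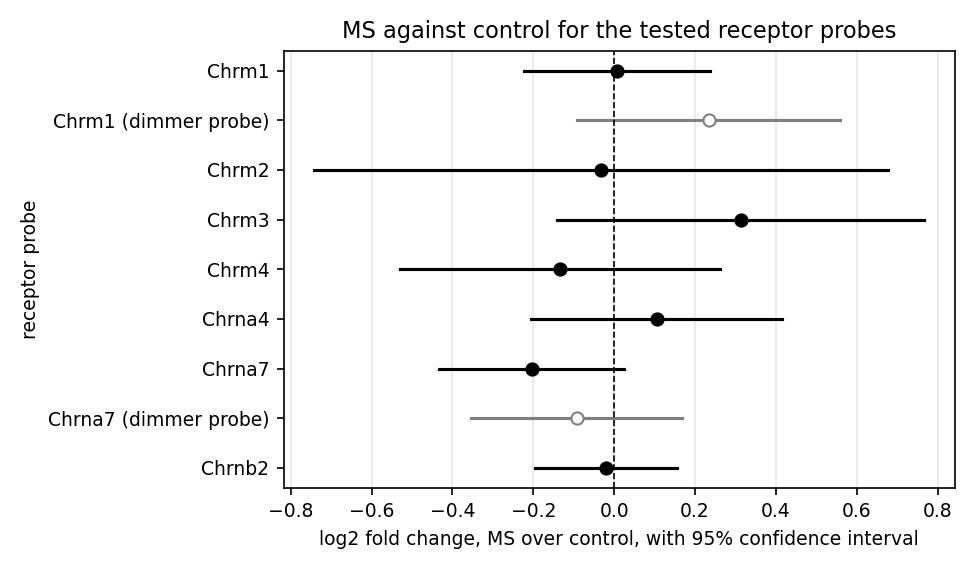
Log2 fold change of MS over control (horizontal axis) with its 95% confidence interval for the 9 tested receptor probes (rows), 4 animals per group. Filled points are the brightest probe of a gene and open grey points the dimmer one. Each interval crosses 0, the widest being that of Chrm2 and the narrowest that of Chrnb2.

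Among the Gq-coupled receptors, Chrm1, the main muscarinic receptor of cortical pyramidal neurons, was level between the groups. Its brighter probe stood at 3.0, 2.75, 3.01 and 2.85 in MS 5.3, 7.1, 7.2 and 7.6, against 2.76, 3.10, 2.84 and 2.90 in control 6.2, 8.2, 8.4 and 8.5. The groups covered the same range, with means of 2.91 ± 0.13 in MS and 2.90 ± 0.14 in control mice (SD, n = 4 each). The log2 fold change was 0.0060 (SE 0.10), with a 95% confidence interval of -0.22 to 0.24. The dimmer probe averaged -2.20 ± 0.24 in MS and -2.43 ± 0.20 in control mice (SD, n = 4 each), with a log2 fold change of 0.23 and an interval of -0.09 to 0.56. The sign of the difference at the brighter probe turned with the scaling, and its size stayed under 0.05 where it was negative.

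Chrm3, which also signals through Gq, had the largest difference among the tested receptors. Its probe at chr13:9875880-9875939 on the minus strand stood at -0.86, -0.36, -0.82 and -0.87 in MS 5.3, 7.1, 7.2 and 7.6, against -0.64, -0.85, -1.52 and -1.17 in control 6.2, 8.2, 8.4 and 8.5. The groups overlapped, since control 6.2 lay above 3 of the 4 MS mice, while control 8.4 and control 8.5 lay below all of them. The means were -0.73 ± 0.25 in MS and -1.04 ± 0.39 in control mice (SD, n = 4 each), a log2 fold change of 0.31 (SE 0.20, interval -0.14 to 0.77) or 1.24-fold. In limma its adjusted p was 0.99956 and its unadjusted p 0.153. The log2 fold change was 0.45 without control 6.2 (unadjusted p 0.0470, adjusted p 0.965 in limma). With the animal number as a random block it was 0.38 (unadjusted p 0.0346, adjusted p 0.427 in limma). The correlation between animals sharing a number was estimated at -0.22 there. A negative value narrows the standard error, so the p with this block is not a stricter one. Without control 8.4 the log2 fold change was 0.15. Without MS 7.1, the highest animal, it was 0.19 (unadjusted p 0.366, adjusted p 0.999691 in limma). Without MS 7.6, control 8.4 and control 8.5, the animals with high olfactory bulb markers described below, it was 0.059.

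Chrm5 was not above background on any array. Its probe at chr2:112319331-112319390 on the minus strand read between -7.99 and -6.52 in MS and between -7.87 and -6.90 in control mice, which is 2.42 to 7.71 signal units. No fold change is given for it.

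Of the Gi-coupled receptors, Chrm2, known as a presynaptic autoreceptor on cholinergic terminals, varied most between animals of all receptor genes above background on every array. The probe lies at chr6:36474550-36474609 on the plus strand, and its first 30 bases are shown because the animals differ most at it.
Chrm2: caaaaagacttttaagcacctccttatgtg

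Chrm2 stood at -3.55, -3.59, -3.85 and -3.09 in MS 5.3, 7.1, 7.2 and 7.6, against -3.99, -4.14, -2.90 and -2.92 in control 6.2, 8.2, 8.4 and 8.5. The controls thus fell into a low and a high set that enclosed all MS mice. The means were -3.52 ± 0.31 in MS and -3.49 ± 0.67 in control mice (SD, n = 4 each), with a log2 fold change of -0.031 (SE 0.31, interval -0.74 to 0.68). The SD over the 8 animals was 0.48, against a median of 0.17 over all tested probes.

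The 3 animals with the highest Chrm2 were also the 3 with high markers of olfactory tissue (the olfactory bulb and the anterior olfactory area), which borders the frontal cortex. The score over these 8 markers was 1.46 in MS 7.6, against 2.53 in control 8.4 and 1.07 in control 8.5. It ran from -1.19 to -0.78 in the other 3 MS mice and was -1.01 and -1.0 in control 6.2 and 8.2. Of the 8 markers, 6 were above background on every array. Lhx1 and Uncx did not follow the score. Lhx1 was lowest in MS 7.6, at -4.86, and Uncx was highest in control 6.2, at -4.53. Each other listed marker was higher in the 3 animals with high scores than in any other animal. Chrm2 read -3.09 to -2.90 in the 3 animals with high scores and -4.14 to -3.55 in the other 5. The part of neighbouring tissue in the Chrm2 levels was not tested. With these 3 animals left out, a choice made after their markers were seen, Chrm2 was -3.85 to -3.55 in 3 MS mice and -4.14 to -3.99 in 2 controls. The log2 fold change was then 0.40. As the animals left out also had the 3 highest Chrm2 levels, this choice selects on Chrm2 itself. The unadjusted p of 0.0222 (adjusted p 0.999975 in limma) therefore cannot be read as a test of the groups.

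**Figure D3:**
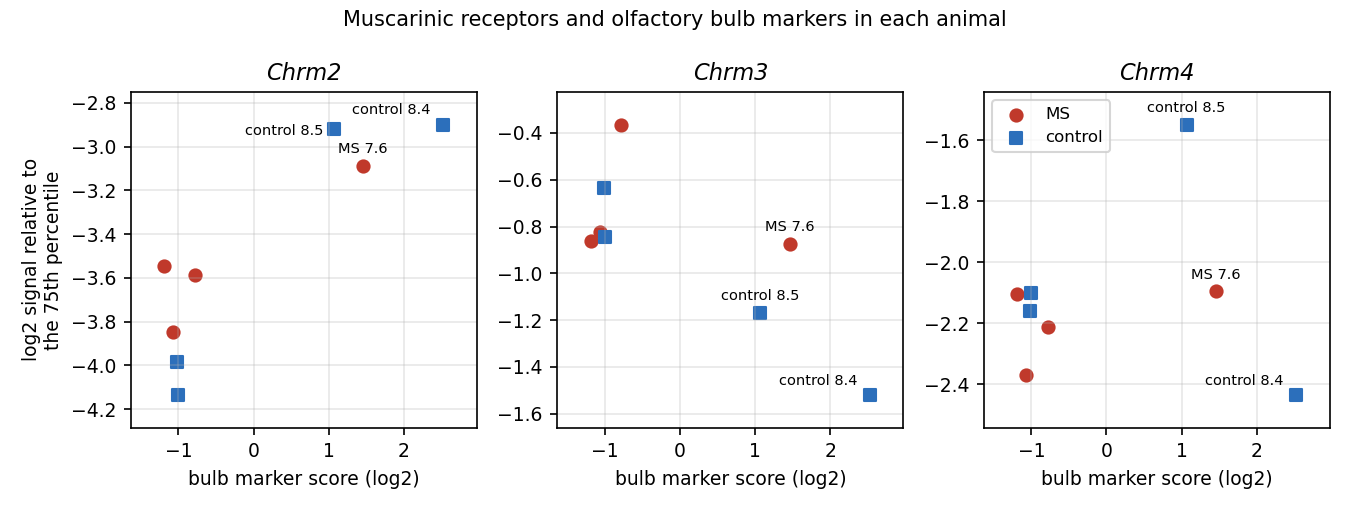
Levels of Chrm2, Chrm3 and Chrm4 (vertical axes, log2 signal relative to the 75th percentile) against the score of 8 olfactory bulb markers (horizontal axes, log2) in each animal. Red circles are MS and blue squares control mice. The 3 labelled animals with scores above 1 have the 3 highest Chrm2 levels, of which 2 are controls, and include the 2 lowest of Chrm3, also controls. Chrm4 is highest in control 8.5 and lowest in control 8.4.

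Chrm4, the other Gi-coupled receptor, is known for its high expression in striatal projection neurons. Its probe at chr2:91768397-91768456 on the plus strand stood at -2.11, -2.21, -2.37 and -2.10 in MS 5.3, 7.1, 7.2 and 7.6, against -2.16, -2.10, -2.44 and -1.55 in control 6.2, 8.2, 8.4 and 8.5. The groups overlapped, with control 8.5 above all of the MS mice and control 8.4 below all of them. The means were -2.20 ± 0.13 in MS and -2.06 ± 0.37 in control mice (SD, n = 4 each), with a log2 fold change of -0.13 (interval -0.53 to 0.26). It was 0.037 without control 8.5 and -0.26 without control 8.4. The score of 11 striatal markers was 1.46 in control 8.4 and at most -0.09 in each other animal, and Chrm4 was lowest in that same control.

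Of the nicotinic subunits, Chrna4 and Chrnb2, the components of the main heteromeric receptor of the cortex, were next in brightness after Chrm1. Chrnb2, at chr3:89557860-89557919 on the minus strand, stood at 0.33, 0.39, 0.37 and 0.40 in MS 5.3, 7.1, 7.2 and 7.6, against 0.29, 0.46, 0.50 and 0.32 in control 6.2, 8.2, 8.4 and 8.5. It was the steadiest receptor transcript, with an SD of 0.072 over the 8 animals that placed it at the 3.19th percentile of all tested probes. The log2 fold change was -0.020 (SE 0.077, interval -0.20 to 0.16), its sign turning positive without control 8.2 or control 8.4, with scaling on the median and within slide row 1.

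Chrna4 at its brighter probe stood at -0.41, -0.22, -0.21 and -0.74 in MS 5.3, 7.1, 7.2 and 7.6, against -0.72, -0.41, -0.38 and -0.49 in control 6.2, 8.2, 8.4 and 8.5. MS 7.6 and control 6.2 were the low animals of their groups, and the ranges overlapped almost wholly. The log2 fold change was 0.10 (SE 0.14, interval -0.21 to 0.42), or 0.031 without control 6.2 and 0.22 without MS 7.6. The dimmer Chrna4 probe was above background on 3 of 4 MS and 1 of 4 control arrays and was therefore not tested. It averaged -5.35 ± 0.19 in MS and -5.91 ± 0.65 in control mice (SD, n = 4 each), and the difference had an exact two-sided permutation p of 0.171.

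Chrna7, whose alpha7 channels are highly permeable to calcium, had the smallest p of the tested receptors. The brighter probe stood at -2.62, -2.76, -2.63 and -2.83 in MS 5.3, 7.1, 7.2 and 7.6, against -2.65, -2.61, -2.48 and -2.29 in control 6.2, 8.2, 8.4 and 8.5. The groups overlapped, with control 6.2 below the highest MS mice and the other 3 controls above all of the MS mice. The means were -2.71 ± 0.10 in MS and -2.51 ± 0.16 in control mice (SD, n = 4 each), a log2 fold change of -0.20 (SE 0.10, interval -0.43 to 0.03) or a ratio of 0.868. In limma its unadjusted p was 0.0750 and its adjusted p 0.99956. At the dimmer probe the log2 fold change was -0.09 (interval -0.35 to 0.17), and normexp background correction gave -0.10 at the brighter one. Chrna7 was lower in MS in each of the leave-one-out comparisons, with log2 fold changes of -0.25 to -0.13. With the animal number as a random block, the change was -0.23 (unadjusted p 0.0140, adjusted p 0.421 in limma). The negative correlation of that block narrows the standard error, so this p is not a stricter one. Across the settings the log2 fold change of Chrna7 stayed below 0. The change was -0.042 without the 3 animals with high olfactory bulb markers.

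Chrna5, the accessory alpha5 subunit that in the cortex is known from layer 6 neurons, was at the limit of detection. Its probe lies at chr9:54854309-54854368 on the plus strand, and its first 30 bases are shown because it was above background on 3 of 4 MS arrays and on none of the 4 control arrays.
Chrna5: ggctttttgttcctgttatttataaatggg

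The processed signal of Chrna5 was 24.4, 14.9, 20.1 and 15.2 in MS 5.3, 7.1, 7.2 and 7.6, against 11.9, 17.7, 12.02 and 9.71 in control 6.2, 8.2, 8.4 and 8.5. MS 7.1 was called above background at a signal of 14.9, whereas control 8.2, at 17.7, was not. The calls are therefore no count of mice with and without the transcript. As levels the signals were -4.94, -5.3, -5.33 and -5.55 in MS, against -5.97, -5.52, -6.21 and -6.12 in control mice. The groups overlapped by a narrow margin, since MS 7.6 lay just below control 8.2, and the other 3 MS mice were above every control. The measured means were -5.28 ± 0.25 in MS and -5.96 ± 0.31 in control mice (SD, n = 4 each).

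As the probe was not well above background in control mice, its fold is given against a floor, for this background correction only. It includes MS 7.6, itself not above background. Each control value was raised, where lower, to the dimmest signal that its array called above background, which changed 2 of the 4 controls. Chrna5 was then 1.45-fold higher in MS mice. The other controls entered as read, so this is not a lower limit of the difference. The exact two-sided permutation p over the 70 labellings of the 8 animals was 0.0571, the smallest that 4 against 4 allows being 0.0286. The probe missed the filter for the test, and in a limma fit of all 55681 probes its adjusted p was 0.999985. With normexp background correction the difference in level was 0.18 in place of 0.68, which is smaller than the 0.53 found with the floor. The score of 6 layer 6 markers was -0.27 to 0.07 in MS and -0.26 to 0.82 in control mice, highest in control 8.4. Among them Ntsr1 was highest in MS 7.1, at 0.86 against 0.54 in control 8.4, and each other marker was highest in control 8.4.

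Chrna3, whose gene neighbours Chrna5 and whose subunit is known from autonomic ganglia and the medial habenula, was not above background on any array. Its probe at chr9:54859230-54859289 on the minus strand read between -8.32 and -7.46 in MS and between -8.33 and -6.42 in control mice. On 5 of the 8 arrays the software had replaced its signal with a surrogate, so these values have no order and no fold is given.

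Of the remaining nicotinic subunits, 6 of 11 were tested, and 1 had a higher and 5 a lower mean in MS mice, with none past the threshold and a median log2 fold change of -0.16. The share with a higher mean was 55.1% and the median 0.013 over 14580 tested genes with a RefSeq symbol. Without control 8.4, 2 were higher and 4 lower, and the median was -0.054. Chrnb4, Chrna6 and Chrna2, named after their values were seen, were each highest in control 8.4. Chrna10, likewise named afterwards, read -1.72 in MS 7.6, against -0.97 in control 8.4 and -2.46 in control 8.5, and was at or below -4.90 in each other animal. It is among the 5 lower and was tested only because it was above background on all 4 control arrays. These are the 3 animals with high bulb markers, as for Chrm2. Chrnb1, Chrnb3, Chrnd, Chrne and Chrng were not tested.

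Of 8 transcripts for the synthesis, transport and breakdown of acetylcholine, 1 had a higher and 7 a lower mean in MS mice. Among all tested genes with a RefSeq symbol, 55.1% had a higher mean. None of the 8 passed the threshold, and their median log2 fold change was -0.16. Chat, the enzyme that makes acetylcholine, averaged -1.44 ± 0.23 in MS and -1.22 ± 0.45 in control mice (SD, n = 4 each), a log2 fold change of -0.22 (interval -0.72 to 0.28), or -0.44 without control 8.2 (adjusted p 0.896 in limma) and -0.10 without control 8.5. Slc18a3, the vesicular transporter, read between -3.25 and -3.07 in MS mice, against -2.26 in control 8.4 and -3.39 to -3.31 in the other controls. Slc5a7, the choline transporter of the terminal, stood at -4.01 to -3.58 in MS mice, against -2.69 in control 8.4 and -4.05 to -3.75 in the other controls.

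The direction for these transporters rested on control 8.4. Lhx8, a factor of forebrain cholinergic neurons named after its values were seen, was above background on that array alone, at -4.26, against -7.88 to -7.13 in MS mice and -8.24 to -7.67 in the other controls, and its part in these levels was not tested. Without control 8.4, 5 of the 8 genes had a higher and 3 a lower mean in MS, with 52.6% of all genes with a RefSeq symbol higher. The median of the 8 was 0.014. The log2 fold changes were then 0.19 for Slc18a3 (adjusted p 0.999962 in limma) and 0.12 for Slc5a7. Of the enzymes that break acetylcholine down, Ache had a log2 fold change of 0.07 (interval -0.19 to 0.34) and Bche one of -0.16 (interval -0.64 to 0.33), or 0.018 without control 8.4.

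**Figure D4:**
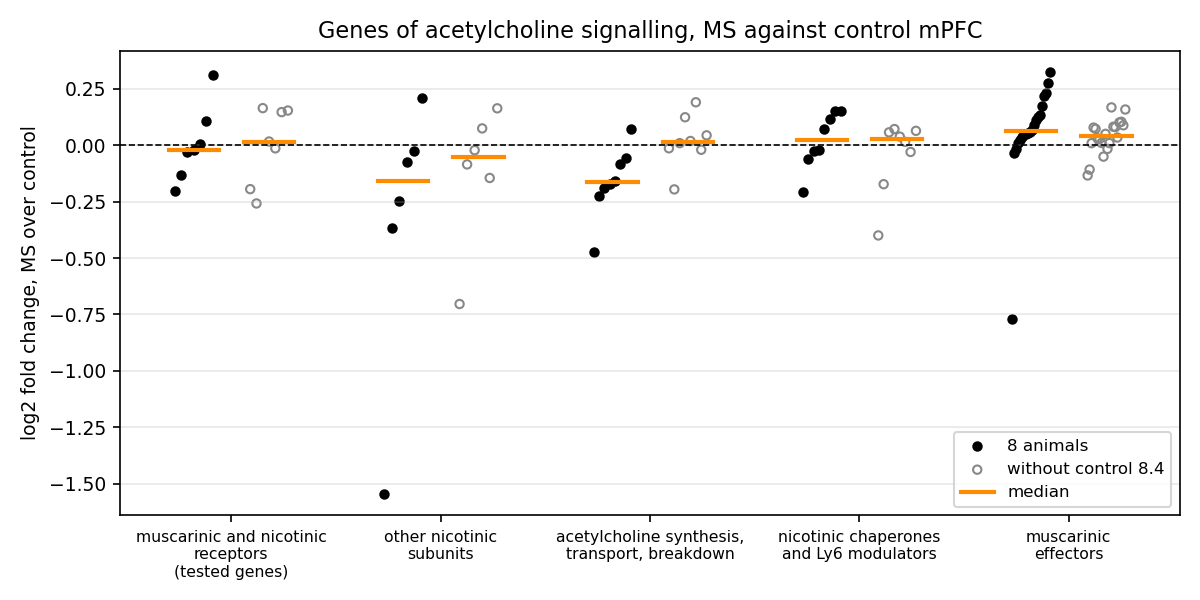
Log2 fold change of MS over control (vertical axis) of each tested gene of the receptor family and of 4 related gene lists. Filled black points use the 8 animals, open grey points leave out control 8.4, and orange bars are medians. The median for synthesis, transport and breakdown is -0.16 with control 8.4 and 0.014 without it.

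The proteins that fold nicotinic receptors or sit beside them at the membrane, among them the chaperone Ric3 and the Ly6 protein Lynx1, were balanced, with 4 of 8 higher and 4 lower and a median of 0.024. The 20 effectors of muscarinic receptors included G protein subunits, phospholipases, the IP3 receptor and the M-current channels. Of these, 17 had a higher mean in MS mice, against 55.1% of all tested genes with a RefSeq symbol. None passed the threshold, none had separate groups, and the median log2 fold change was 0.063 against 0.013 over all genes with a RefSeq symbol. Without control 8.4 the count was 16 of 20 and the median 0.042, with 52.6% of all genes higher. Rgs4 and Itpr1, named after their values were seen, had log2 fold changes of 0.32 (interval -0.11 to 0.76) and 0.22 (interval -0.06 to 0.49), and both were lowest in control 8.4, at 3.64 and 5.27. Rgs9, a striatal regulator of G proteins named in the same way, was at 0.55 to 0.93 in MS mice, against 3.38 in control 8.4 and 0.57 to 1.08 in the other controls.

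The genes whose levels followed those of the brightest and of the most variable receptor over the 8 arrays were sought among 14240 named genes above background on all arrays. For Chrm1 these were Ppp2r2a (Pearson's r 0.983, Spearman's rho 0.976), Lrpap1 (0.971 and 0.952) and Mrps17 (0.963 and 0.929). For Chrm2 they were Gcdh (0.965 and 0.929), Ntng1 (0.95 and 0.976) and 1700029I15Rik (0.944 and 0.929). Without control 8.4, r was 0.963 to 0.982 for the Chrm1 set and 0.939 to 0.983 for the Chrm2 set. These are the highest of many correlations over 8 animals that share a slide and a scaling, and are given as a description.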

How the data were processed

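RNA from the mPFC of 8 mice, 4 MS and 4 control, was labelled with Cy3 and hybridised to Agilent 8x60K mouse arrays, 1 animal per array, on 1 slide read in 1 scan. The file headers give array design 28005 and build mm9, and the methods of the study name another design number. Deposited scanner files give the intensity of each spot, read out by the authors in Agilent Feature Extraction 10.10.1.1. Its processed signal has the background subtracted, with low values set to surrogates, and no scaling across arrays. A second deposited table gives normalised log2 values. Its columns of 34137 probes share nearly 1 distribution, with medians of 8.532 to 8.533 and a difference of at most 0.044 at equal rank. They correlated at 0.9998 or above with the log2 mean signal of their own array, without background subtraction, and the table was used as an alternative only. It holds no row for the probes of Chrna5, Chrna3 and Chrm5.

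Control spots (3671 of 62976) and spots called outliers by the software (0.255% to 0.304% per array) were left out, spots of a probe were averaged, and the processed signal was divided by the 75th percentile of its array before log2 was taken. MS and control were compared by lmFit and eBayes of limma 3.58.1 in R 4.3.3, two-sided and without covariates, with Benjamini-Hochberg adjustment at 0.05 over all tested probes, or by exact permutation for a single probe. Also used were statmod 1.5.0, data.table (version 1.17.8), Python 3.11.15 and matplotlib 3.10.9. The fit was tested on simulated data. Symbols were checked against RefSeq for GRCm38.p6, used for names only.

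The receptor genes, the gene lists and the markers were chosen with earlier results of these data known. The scores of some marker lists are not reported here. Named were all receptor genes, Chat, Slc18a3, Slc5a7, Ache and Bche, any listed gene whose groups did not overlap (there were 0), and the 3 genes most like the brightest and the most variable receptor. Alternatives changed the background correction, scaling, filter, outlier spots, probe choice, slide row, animal number, variance model and animals. The number of arrays limits the precision, which over all tested probes is a median SE of 0.12 log2 units. Among the tested receptor probes the SE ran from 0.077 for Chrnb2 to 0.31 for Chrm2.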

Additional observations from a re-analysis of the deposited data

Results flagged for a closer look

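Over the 10 receptor genes and 5 genes of acetylcholine handling, 3 of 30 group-wise checks found an animal far from the other 3 of its group, where chance gives about 1 in 20. Chrm3 stood at -0.36 in MS 7.1, against -0.87 to -0.82 in the other MS mice. Slc18a3 stood at -2.26 in control 8.4, against -3.39 to -3.31 in the other controls. Bche stood at -3.32 in MS 7.1, against -3.91 to -3.81 in the other MS mice.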

How the results depend on the processing

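No probe passed the threshold in any setting. Of 168 alternative values for the 7 tested receptors, 47 equalled the original, most because the setting changes only the test, 96 moved but kept their direction and 25 reversed. For the other 5 genes these were 34, 75 and 11 of 120. The log2 fold change of Chrm1 was -0.0062 with normexp, -0.022 with quantile normalisation, -0.010 with the 75th percentile over probes above background, -0.034 in the authors' log2 table, -0.024 with the animal number as a random block, -0.033 within slide row 2 and -0.0050 without MS 7.6, control 8.4 and control 8.5. Chrm2 was 0.0082 with normexp, 0.022 in the authors' log2 table, 0.051 within row 2 and 0.40 without those 3 animals. Within row 2, Chrm4 was 0.037, Chrna4 -0.084 and Ache -0.033. Chrnb2 was 0.0017 when scaled on the median and 0.057 within row 1, where Slc18a3 was 0.20, Slc5a7 0.30 and Bche 0.082. Without the 3 animals, Chat was 0.015, Slc18a3 0.20 and Slc5a7 0.12. The cause was not tested. With each animal left out in turn, log2 fold changes ran from -0.041 to 0.071 for Chrm1 (below 0 also at -0.027, -0.030 and -0.014 without MS 5.3, MS 7.2 and control 8.4), -0.25 to 0.16 for Chrm2 (also above 0 at 0.078 without MS 7.2), 0.15 to 0.45 for Chrm3, -0.26 to 0.037 for Chrm4, 0.031 to 0.22 for Chrna4, -0.25 to -0.13 for Chrna7, -0.054 to 0.016 for Chrnb2 (0.0021 without control 8.2), -0.44 to -0.10 for Chat, -0.19 to 0.19 for Slc18a3, -0.33 to 0.12 for Slc5a7, -0.0044 to 0.15 for Ache and -0.29 to 0.018 for Bche. Receptors with a higher mean in MS numbered 2 to 5 of 7, with 5 without control 8.5, and pathway genes 21 to 28 of 42. No paired analysis was possible because no replicate number is shared between the groups. Signal over background limits Chrna5, Chrna3 and Chrm5.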
